A study of Equus caballus with 15 samples.

Results

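B lymphocytes are one of the blood mononuclear cell types from which macrophage cultures are started, and 9 genes typical of them were followed here across all 5 conditions of an equine macrophage study: MS4A1, CD79A, CD79B, PAX5, BLK, BANK1, CR2, TNFRSF13C and JCHAIN. The genes were chosen by symbol, and 8 of the 9 were listed under their symbol among 16932 protein-coding genes. CD79B was not listed under its symbol and is not analysed here. All 8 passed the filter on low values, a mean of at least 0.1 CPM (reads of a gene per 1000000 reads counted on all genes) over the 15 libraries, as did 13955 genes in all.

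Macrophages were grown from the blood mononuclear cells of 2 horses, geldings aged 3 and 5 years, by adherence and 5 days in M-CSF at 30 ng/ml. All cultures received that M-CSF. Untreated cultures had nothing further, and IL-1ß cultures received the inflammatory cytokine IL-1ß at 10 ng/ml for 24 h. The other 3 groups received the same IL-1ß together with an orthobiologic therapy at 25% of the medium: medium conditioned by bone marrow mesenchymal stromal cells (MSC-CM), platelet-rich plasma lysate (PRP lysate), or autologous conditioned serum (ACS). According to the methods the treatments were washed away and the cells were cultured for 24 h more, whereas the labels give collection after the wash. Each group had 3 libraries. The 3 of each therapy came from 3 donor horses aged 2 and 5 years. The methods describe the libraries of the Untreated and IL-1ß groups as technical replicates, so p-values against those groups partly rest on technical spread. The limma fit to all 5 groups takes its spread from all of them. Its p-values between therapies therefore partly rest on technical spread as well. With 3 libraries against 3, an exact permutation test cannot give a two-sided p below 0.1, and the tests below are therefore models fitted across all genes, limma unless edgeR or DESeq2 is named.

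B cells recognize antigen through a membrane immunoglobulin whose signaling partners are the CD79A and CD79B chains. MS4A1 encodes CD20, a surface protein of mature B cells, CR2 encodes the complement receptor CD21 that lowers the threshold for activation, and TNFRSF13C encodes the receptor for BAFF, the survival factor that myeloid cells make as TNFSF13B. BLK is a kinase of the SRC family and BANK1 a scaffold protein, both acting downstream of the B cell receptor. PAX5 is the transcription factor that holds cells in the B lineage, and JCHAIN, the joining chain of polymeric IgM and IgA, marks cells that secrete antibody. Several of these genes can also be transcribed in other leukocytes. In whole-culture RNA, fewer cells of a type and less RNA per cell cannot be told apart.

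The libraries held 28410734 to 47894070 reads on genes, so that 1 read was worth 0.0209 to 0.0352 CPM. Of 9 markers of the labelled cell type, CD68 was at 1340 to 2157 CPM and the mannose receptor MRC1 at 515 to 3394 CPM. CD163 ranged from 7.34 to 710 CPM, and the markers not named here from 65.7 to 539 CPM. CD14 lay at 1.38 to 4.32 CPM and C1QB, C1QC and MARCO at 0.699 to 11.7 CPM. Lymphocyte markers were present in every library. The 4 B cell markers used here (MS4A1, CD79A, CD22 and PAX5) summed to 29.9 to 76.9 CPM, the 8 T cell markers to 670 to 1759 CPM and the 6 NK cell markers to 204 to 816 CPM. No T or NK cell marker was at 0 in all 3 libraries of any group, and 5 listed genes of stromal cells summed to at most 2.94 CPM. Of 2 libraries that stood apart on the first principal component, which held 49.0% of the variance, IL-1ß 3 scored -115 and PRP lysate 1 scored -56.2, against -20.9 to 28.7 for the other 13. Where leaving out both of these libraries changed a call among the 8 genes, the value without them is given.

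The sum of these 4 B cell markers was higher in all IL-1ß and MSC-CM libraries than in all Untreated and ACS libraries. They reached 35.7 to 38.7 CPM in the Untreated group, 53.8 to 76.9 CPM with IL-1ß, 67.9 to 71.6 CPM with MSC-CM, 29.9 to 60.9 CPM with PRP lysate and 41.4 to 47.2 CPM with ACS. The highest PRP lysate value was that of PRP lysate 1, and the other 2 libraries were at 29.9 and 38.1 CPM. CD22 and CD79A made up most of this sum, at 39.0 and 35.0 of the 76.9 CPM in IL-1ß 3, where PAX5 was at 0. For IL-1ß against Untreated 0 of the 4 markers were called, beside 0.208% of all genes tested, and their median log2 difference was 0.67 beside -0.07. PAX5 differed by -0.01. Of the B lymphocyte genes outside the sum, BANK1, TNFRSF13C and JCHAIN had lower means with IL-1ß, with log2 differences of -0.41, -1.26 and -0.10. BLK and CR2 had higher means with IL-1ß, with log2 differences of 0.86 and 0.41. None of these was called. T cell markers summed to 670 to 966 CPM in the Untreated group, 930 to 1700 CPM with IL-1ß, 1285 to 1369 CPM with MSC-CM, 888 to 1759 CPM with PRP lysate and 809 to 1017 CPM with ACS. The highest T cell and NK cell sums were those of PRP lysate 1 and IL-1ß 3, the same 2 libraries in which the macrophage markers had their lowest sums, 2030 CPM and 3415 CPM. Their part in the values of single B lymphocyte genes was not tested.

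**Figure D1:**
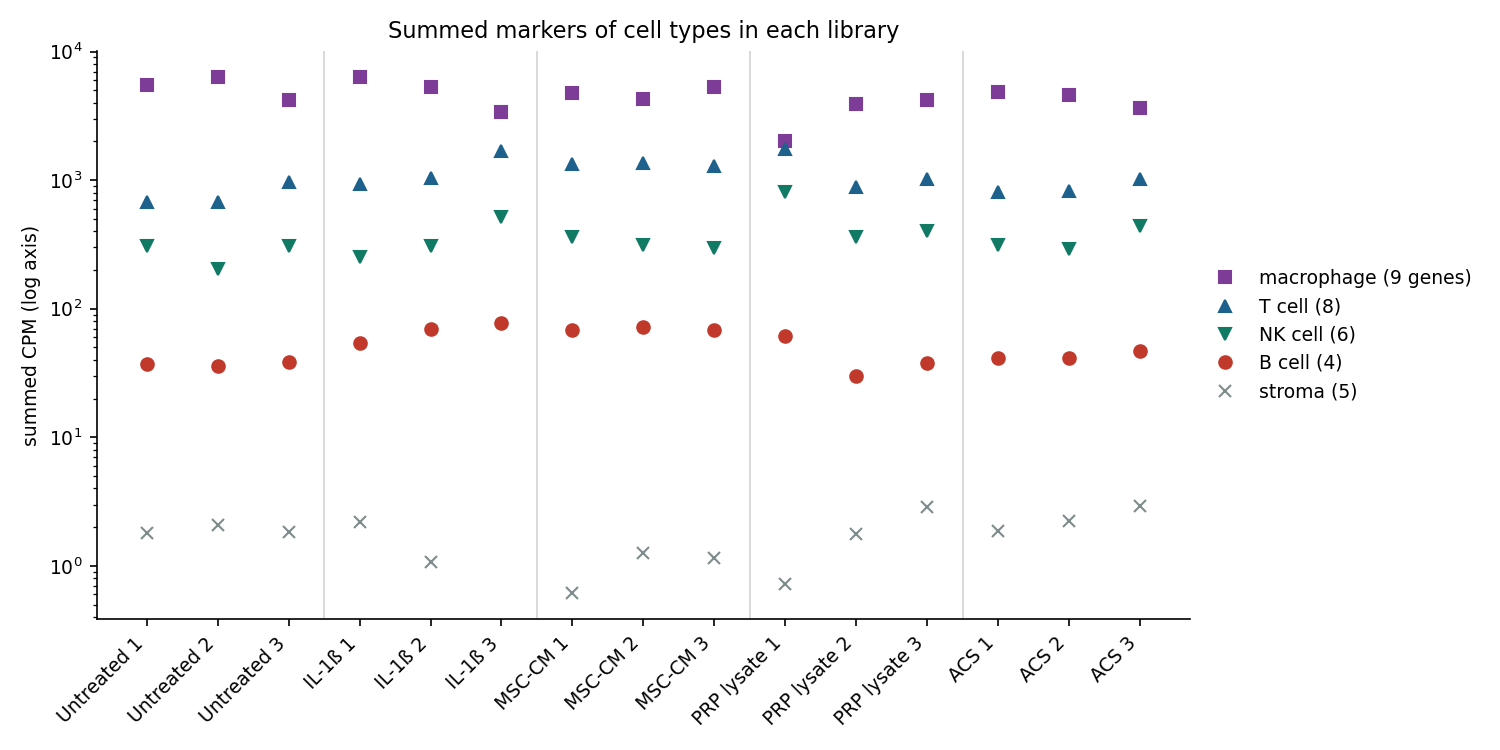
Summed CPM of the listed markers of 5 cell types (log axis) in each of the 15 libraries, in order of group; a stromal sum of 0 in IL-1ß 3 is not drawn. B cell markers (circles) sit between 29.9 and 76.9 CPM, far below the T cell markers at 670 to 1759 CPM.

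In the EquCab3.0 annotation the 8 genes lie on 7 chromosomes. MS4A1 (ENSECAG00000018529) spans chr12:23852599-23866388, CD79A (ENSECAG00000007198) chr10:14006545-14010077, and CR2 (ENSECAG00000031055) chr5:27741713-27773080. TNFRSF13C (ENSECAG00000031107) spans chr28:39413858-39415302, BLK (ENSECAG00000017938) chr2:60018113-60038328, and PAX5 (ENSECAG00000000551) chr25:2041930-2223104. BANK1 (ENSECAG00000008109) at chr3:38353378-38664248 and JCHAIN (ENSECAG00000020041) at chr3:66086164-66096564 share a chromosome. No other listed gene overlaps any of them. Their spans run from 1.45 kb for TNFRSF13C to 311 kb for BANK1. By mean CPM over the 15 libraries, JCHAIN ranked above 92.2% of all listed genes, BANK1 above 57.3%, CD79A above 52.3% and CR2 above 23.4%.

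None of the 8 genes was called in any of the 7 comparisons at an adjusted p of at most 0.05 (limma with Benjamini-Hochberg adjustment over 13955 genes) and a change of at least 2-fold. For IL-1ß against Untreated, 0 of 8 were called, beside 0.208% of all genes tested. For the therapies against IL-1ß the count was 0 of 8 each time, beside 0% of all genes for MSC-CM, 2.89% for PRP lysate and 2.06% for ACS. For PRP lysate and ACS against MSC-CM it was 0 of 8 beside 2.4% and 1.07%, and for PRP lysate against ACS 0 of 8 beside 0.0932%. At an unadjusted p of at most 0.05, 3, 1, 3 and 2 of the 8 genes passed in the 4 comparisons of IL-1ß with Untreated, MSC-CM, PRP lysate and ACS, beside 12.4%, 5.94%, 16.9% and 19.4% of all genes. With PRP lysate and ACS against MSC-CM, 2 and 1 passed, beside 13.5% and 12.2%, and for PRP lysate against ACS 0 passed, beside 5.25%. The edgeR quasi-likelihood test on the recovered reads also called 0 of 8 in each of the 7, in the order given above, beside 0.201%, 0%, 2.75%, 1.71%, 2.16%, 0.903% and 0.0788% of all genes. DESeq2 on the same reads called 1 of 8 for IL-1ß against Untreated (1.3% of all genes), 1 for PRP lysate against IL-1ß (5.02%), 1 for PRP lysate against MSC-CM (3.52%) and 2 for ACS against IL-1ß (4.2%). It called 0 of 8 for MSC-CM against IL-1ß (0.0143%), ACS against MSC-CM (2.13%) and PRP lysate against ACS (0.437%).

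**Figure D2:**
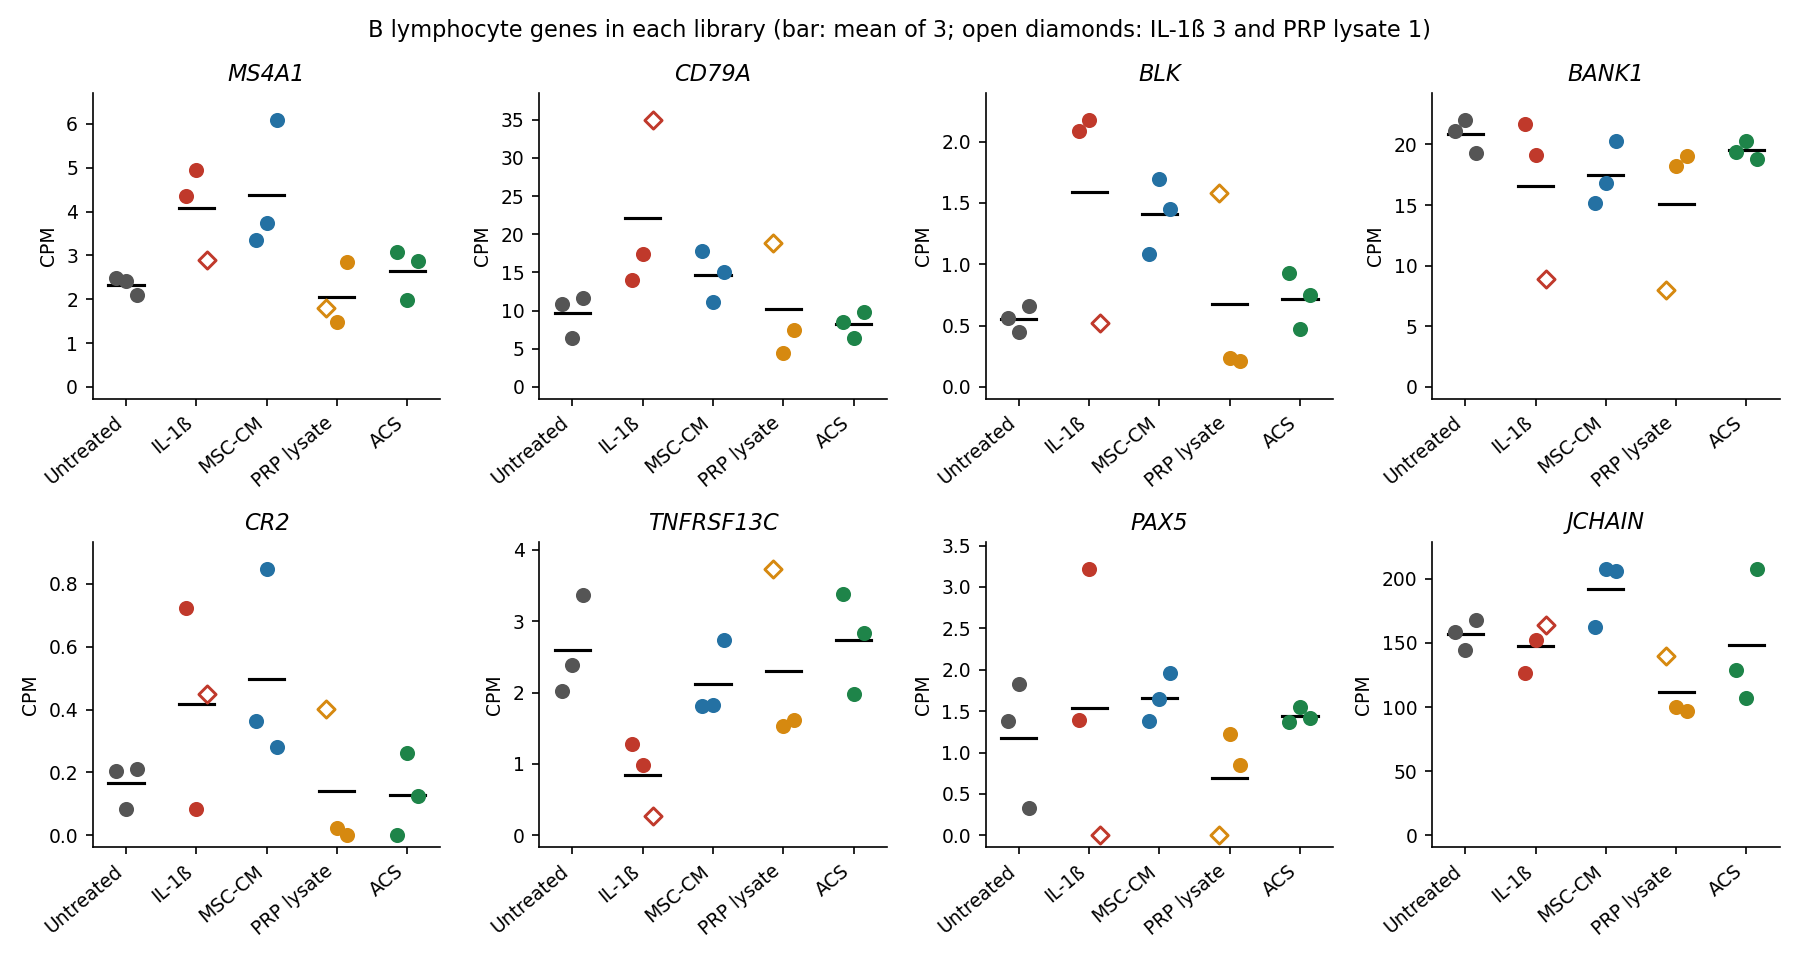
CPM of the 8 B lymphocyte genes (linear axes that differ between panels) in the 3 libraries of each group, with the mean as a bar; open diamonds mark IL-1ß 3 and PRP lysate 1. TNFRSF13C lies lower in the 3 IL-1ß libraries, at 0.277 to 1.28 CPM, than in each of the other 12.

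TNFRSF13C, the BAFF receptor, was the 1 gene of the 8 whose IL-1ß libraries lay outside the range of all others. It was at 2.02, 2.38 and 3.37 CPM in the Untreated libraries and at 1.28, 0.989 and 0.277 CPM with IL-1ß. With MSC-CM it was at 1.81, 1.83 and 2.74 CPM, with PRP lysate at 3.73, 1.53 and 1.62 CPM, and with ACS at 3.38, 1.98 and 2.84 CPM. All 3 IL-1ß libraries were therefore below all 12 others, while the other 4 groups overlapped one another. The share of all genes with this pattern was not counted. Between IL-1ß and Untreated alone, 8.35% of all genes were apart and lower with IL-1ß. The IL-1ß libraries held 46, 35 and 8 reads of the gene, and the others 46 to 139.

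On the log2(CPM + 0.5) scale, on which changes of low genes are understated, TNFRSF13C differed by -1.26 (SE 0.360, 95% interval -2.03 to -0.48) between IL-1ß and Untreated, with an adjusted p of 0.185 from limma. Against IL-1ß it differed by 1.03 with MSC-CM (adjusted p = 0.715, limma), by 1.05 with PRP lysate (adjusted p = 0.141, limma) and by 1.32 with ACS (SE 0.360, 95% interval 0.55 to 2.10, adjusted p = 0.0713, limma). These 4 differences share the IL-1ß libraries and are not independent of each other. None passed the threshold. DESeq2 did call the gene for IL-1ß against Untreated (log2 difference -1.60, adjusted p = 0.0467) and for ACS against IL-1ß (1.61, adjusted p = 0.0240), whereas edgeR gave adjusted p-values of 0.230 and 0.116. Without IL-1ß 3, whose value was the lowest, and PRP lysate 1, the differences were -0.90 and 0.97, with adjusted p-values of 0.1001 and 0.0551 from limma. Over all alternatives run, the adjusted p ranged from 0.0467 to 0.605 and from 0.0240 to 0.275 in these 2 comparisons. Without IL-1ß 1 alone, ACS against IL-1ß was at 1.56 and passed (adjusted p = 0.0358, limma), 1 of the 8 genes beside 5.15% of all genes called in that fit. PRP lysate 1 held the highest value of all, and without these 2 libraries the difference of PRP lysate from IL-1ß was 0.35.

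The ligand of that receptor, TNFSF13B, was far more abundant in CPM. It was at 99.1, 102 and 101 CPM in the Untreated libraries and at 129, 102 and 29.7 CPM with IL-1ß. With MSC-CM it was at 100.1, 136 and 157 CPM, with PRP lysate at 53.1, 55.9 and 61.6 CPM, and with ACS at 79.2, 88.05 and 108 CPM. The PRP lysate libraries lay below all libraries of the Untreated, MSC-CM and ACS groups, and IL-1ß 3 lay below all other libraries. The difference of PRP lysate from MSC-CM was -1.18 (SE 0.391, 95% interval -2.02 to -0.33, adjusted p = 0.147, limma) and that from IL-1ß was -0.36 (adjusted p = 0.682, limma). Without IL-1ß 3 and PRP lysate 1 they were -1.13 (adjusted p = 0.00106, limma), which passed the threshold, and -0.96 (adjusted p = 0.00800, limma), short of 2-fold. TNFSF13, the other ligand of this receptor family, was not listed under its symbol.

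MS4A1, which encodes CD20, was at 2.48, 2.41 and 2.10 CPM in the Untreated libraries and at 4.36, 4.94 and 2.90 CPM with IL-1ß. With MSC-CM it was at 3.35, 3.73 and 6.09 CPM, with PRP lysate at 1.80, 1.48 and 2.85 CPM, and with ACS at 3.08, 1.98 and 2.86 CPM. All IL-1ß and MSC-CM libraries were above all Untreated and all PRP lysate libraries, and the ACS values overlapped those of IL-1ß but not those of MSC-CM. The difference of IL-1ß from Untreated was 0.67 (SE 0.283, 95% interval 0.06 to 1.28, adjusted p = 0.360, limma). PRP lysate differed from IL-1ß by -0.85 (95% interval -1.46 to -0.24, adjusted p = 0.127, limma) and from MSC-CM by -0.94 (95% interval -1.55 to -0.33, adjusted p = 0.102, limma). DESeq2 called both, with log2 differences of -1.09 (adjusted p = 0.0152) and -1.03 (adjusted p = 0.0261), and edgeR called neither, at adjusted p-values of 0.0960 and 0.115. Over all alternatives they ran from 0.0152 to 0.672 and from 0.0261 to 0.440.

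CD79A, the receptor's signaling chain, was at 10.8, 6.39 and 11.7 CPM in the Untreated libraries and at 14.01, 17.4 and 35.0 CPM with IL-1ß. In the MSC-CM group it was at 17.8, 11.2 and 15.1 CPM, with PRP lysate at 18.9, 4.45 and 7.39 CPM, and with ACS at 8.56, 6.4 and 9.88 CPM. The IL-1ß libraries were all above the Untreated and ACS libraries, and the MSC-CM libraries all above the ACS libraries. The highest value of the IL-1ß group was that of IL-1ß 3 and the highest of the PRP lysate group that of PRP lysate 1. The mean with IL-1ß was 22.1 ± 11.2 CPM (SD, n = 3) against 9.63 ± 2.83 in Untreated and 8.28 ± 1.76 with ACS. IL-1ß differed from Untreated by 1.09 (SE 0.453, 95% interval 0.12 to 2.07, adjusted p = 0.352, limma), and ACS differed from IL-1ß by -1.28 (95% interval -2.25 to -0.30, adjusted p = 0.165, limma). Without IL-1ß 3 and PRP lysate 1 these differences were 0.71 (adjusted p = 0.228, limma) and -0.90 (adjusted p = 0.105, limma). DESeq2 called the latter (-1.62, adjusted p = 0.0342, in a range of 0.0342 to 0.456 over the alternatives). PRP lysate differed from IL-1ß by -1.20 (adjusted p = 0.184, limma), and with PRP lysate 1 left out by -1.75 (adjusted p = 0.0223, limma), which passed the threshold, as 2 of the 8 genes did in that fit beside 3.83% of all genes. Over all alternatives the adjusted p of that difference ran from 0.0191 to 0.746.

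BLK, the kinase, differed strongly between the libraries of the IL-1ß group and between those of the PRP lysate group. It was at 0.562, 0.448 and 0.661 CPM in the Untreated libraries and at 2.08, 2.18 and 0.519 CPM with IL-1ß. The gene was at 1.09, 1.70 and 1.45 CPM with MSC-CM, with PRP lysate at 1.59, 0.239 and 0.211 CPM, and with ACS at 0.927, 0.474 and 0.752 CPM. The MSC-CM libraries were above all Untreated and ACS libraries, while IL-1ß 3 lay with the Untreated libraries and PRP lysate 1 with the MSC-CM libraries. The gene had between 6 and 77 reads a library. With all libraries the difference of IL-1ß from Untreated was 0.86 (SE 0.424, 95% interval -0.05 to 1.78, adjusted p = 0.428, limma) and that of PRP lysate from IL-1ß was -0.89 (adjusted p = 0.306, limma). Without PRP lysate 1 alone the latter was -1.40 and passed (adjusted p = 0.0434, limma).

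With IL-1ß 3 and PRP lysate 1 left out, a choice made after seeing the data that leaves 2 libraries in each of these groups, BLK passed the threshold in 4 comparisons by limma. It rose with IL-1ß against Untreated by 1.32 (adjusted p = 0.0172, limma), beside 0.752% of all genes called in that fit. Against IL-1ß it fell by 1.86 on the log2 scale with PRP lysate (adjusted p = 0.000676, limma; 4.32% of all genes called) and ACS differed by -1.13 (adjusted p = 0.0149, limma; 2.69%). PRP lysate was also lower than MSC-CM, with a log2 difference of -1.39 (adjusted p = 0.00190, limma; 5.02%). CD79A passed in the same fit for PRP lysate against IL-1ß (-1.37, adjusted p = 0.0191, limma) and against MSC-CM (-1.26, adjusted p = 0.0126, limma). With all libraries BLK differed by -0.67 for ACS against IL-1ß (adjusted p = 0.345, limma) and by -0.88 for PRP lysate against MSC-CM (adjusted p = 0.398, limma), where CD79A differed by -0.72 (adjusted p = 0.599, limma). None of the 8 passed in MSC-CM against IL-1ß, ACS against MSC-CM or PRP lysate against ACS, where 0%, 2.94% and 0.423% of all genes did. For these 6 results the fit with the 2 libraries left out gave the lowest adjusted p of all alternatives, and the highest ran from 0.570 to 0.895.

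CR2, the complement receptor, was close to the limit of detection. It had 8, 3 and 7 reads in the Untreated libraries, 26, 3 and 13 with IL-1ß, 16, 33 and 12 with MSC-CM, 15, 1 and 0 with PRP lysate, and 0, 10 and 6 with ACS. Its 3 MSC-CM libraries, at 0.281 to 0.849 CPM, were above the 3 ACS libraries, at 0 to 0.263 CPM. A count of 0 allows up to 3 reads, which is 0.0818 CPM in ACS 1 and 0.106 CPM in PRP lysate 3. The difference of ACS from MSC-CM was -0.64 (95% interval -1.33 to 0.05, adjusted p = 0.450, limma) and did not pass the threshold. CXCR5, the receptor that takes B cells into follicles, was at most 0.349 CPM in any library.

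BANK1, the scaffold protein, was at 21.1, 22.0 and 19.3 CPM in the Untreated libraries and at 21.7, 19.2 and 8.92 CPM with IL-1ß. With MSC-CM it was at 15.2, 16.8 and 20.3 CPM, with PRP lysate at 7.98, 18.2 and 19.0 CPM, and with ACS at 19.4, 20.3 and 18.8 CPM. The 2 lowest values were those of PRP lysate 1 and IL-1ß 3, and the other 13 libraries lay between 15.2 and 22.0 CPM. The PRP lysate libraries were below the Untreated libraries, and all other pairs of groups overlapped. The difference of IL-1ß from Untreated was -0.41 (95% interval -1.13 to 0.31, adjusted p = 0.606, limma), and -0.03 without these 2 libraries.

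PAX5, the transcription factor, was at 1.38, 1.82 and 0.331 CPM in the Untreated libraries and at 1.39, 3.22 and 0 CPM with IL-1ß. With MSC-CM it was at 1.38, 1.65 and 1.97 CPM, with PRP lysate at 0, 1.22 and 0.845 CPM, and with ACS at 1.36, 1.55 and 1.42 CPM. The 2 libraries at 0 were IL-1ß 3 and PRP lysate 1, where 0 reads allow up to 0.104 CPM and 0.0806 CPM. All 3 PRP lysate libraries were below all MSC-CM and ACS libraries. The differences were -1.04 (SE 0.630, 95% interval -2.39 to 0.32, adjusted p = 0.571, limma) and -0.89 (95% interval -2.25 to 0.47, adjusted p = 0.860, limma), and without the libraries that stood apart -0.50 and -0.35.

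JCHAIN was at 159, 145 and 168 CPM in the Untreated libraries and at 127, 153 and 164 CPM with IL-1ß. It was at 163, 207 and 206 CPM with MSC-CM, with PRP lysate at 139, 100.3 and 96.6 CPM, and with ACS at 129, 107.1 and 208 CPM. The PRP lysate libraries were all below the Untreated and MSC-CM libraries and overlapped those of IL-1ß and ACS. JCHAIN differed by -0.78 (SE 0.222, 95% interval -1.26 to -0.31, adjusted p = 0.0783, limma) between PRP lysate and MSC-CM, and by -0.10 (95% interval -0.57 to 0.38, adjusted p = 0.851, limma) between IL-1ß and Untreated. Without IL-1ß 3 and PRP lysate 1 the first of these was -0.95 (adjusted p = 0.00978, limma), which is short of 2-fold, and over all alternatives its adjusted p ran from 0.00978 to 0.285. Other genes of antibody secretion had both high and low levels. XBP1, a transcription factor of secretory cells that many cell types transcribe, was at 138 to 266 CPM, and SSR4, a subunit of the translocon-associated complex, at 147 to 348 CPM. MZB1 was at 2.31 to 13.97 CPM and the plasma cell receptor TNFRSF17 at 0 to 2.42 CPM, whereas SDC1, which many cell types transcribe, was at 1147 to 1990 CPM. Immunoglobulin genes were not found by symbol and are not analysed here.

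**Figure D3:**
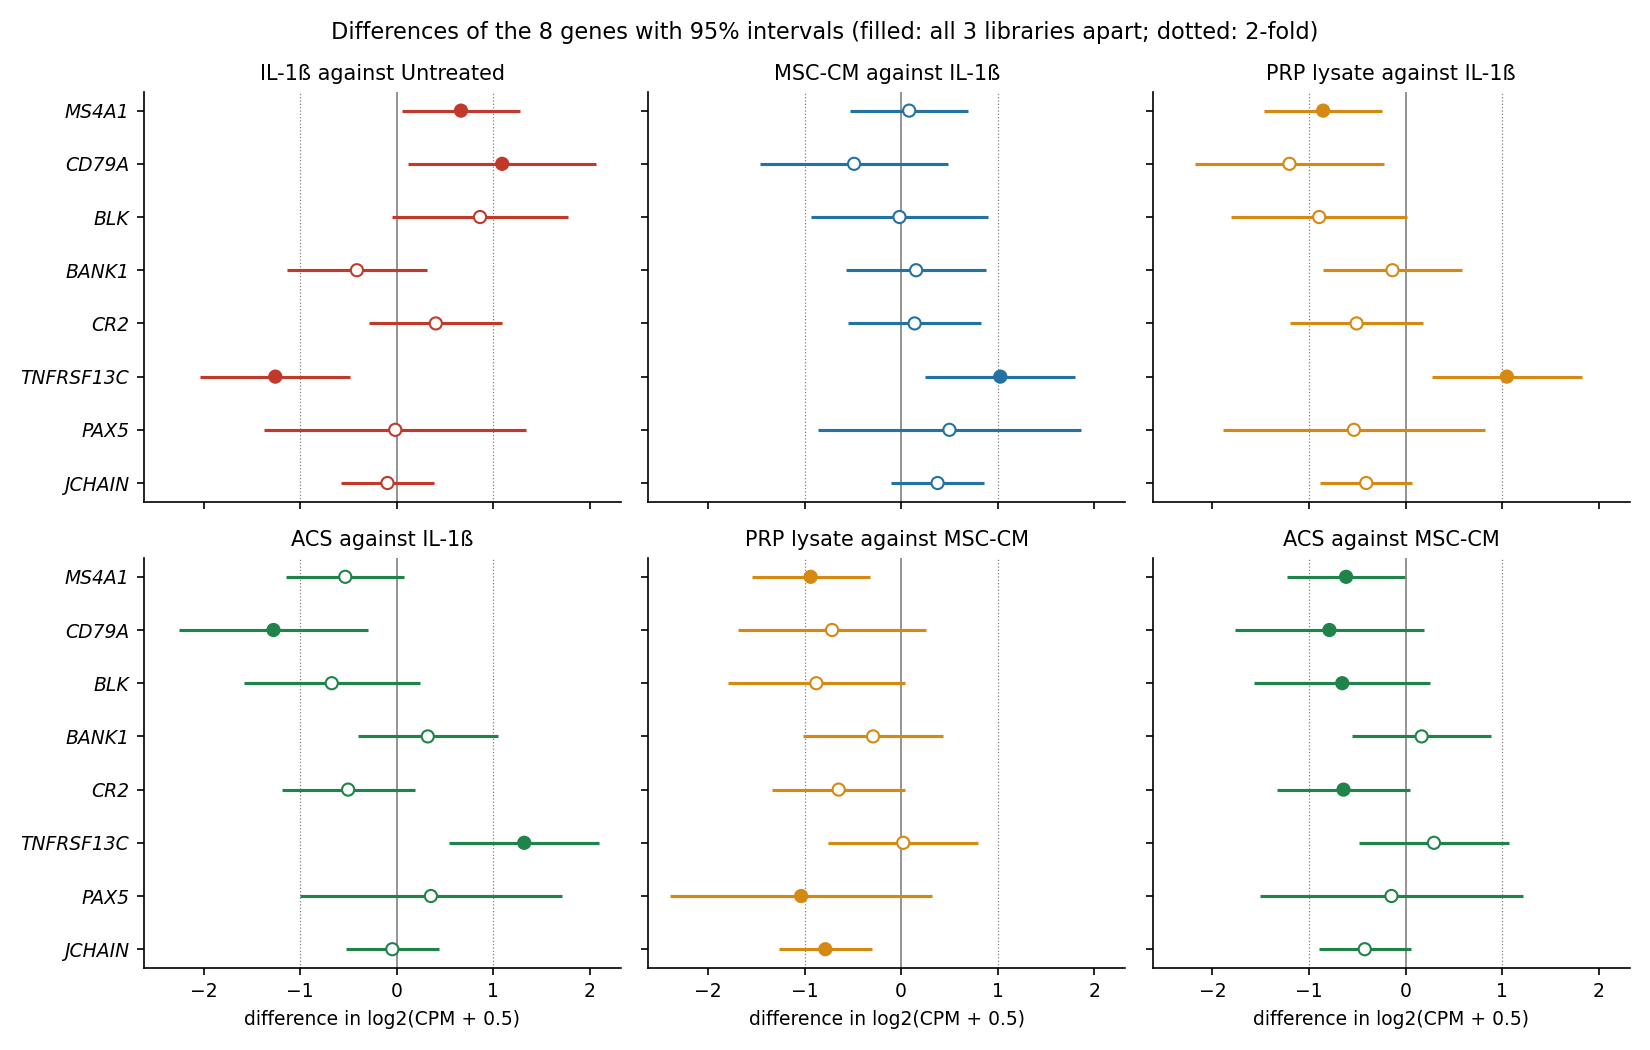
Difference in log2(CPM + 0.5) of each of the 8 genes (points) with its 95% interval from limma (lines) in 6 comparisons; filled points are genes whose 3 libraries in one group lie outside the range of the other group, and dotted lines mark 2-fold. TNFRSF13C lies at -1.26 for IL-1ß against Untreated and at 1.03 to 1.32 for the therapies against IL-1ß, and no gene passed the adjusted threshold.

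Counted over the 8 genes, the groups did not overlap for 2 genes higher (MS4A1, CD79A) and 1 lower (TNFRSF13C) with IL-1ß than in Untreated, beside 7.29% of all genes apart and higher and 8.35% apart and lower. Against IL-1ß, TNFRSF13C was apart and higher with MSC-CM (7.64% of all genes higher, 1.7% lower), with PRP lysate (8.32% higher) and with ACS (14.6% higher). MS4A1 was apart and lower with PRP lysate (6.21% of all genes lower) and CD79A with ACS (10% lower). Against MSC-CM, 3 genes were apart and lower with PRP lysate (MS4A1, PAX5, JCHAIN) and 0 higher, beside 11.8% of all genes lower and 6.86% higher. With ACS, 4 were lower than with MSC-CM (MS4A1, CD79A, BLK, CR2) and 0 higher, beside 19.8% and 12.2% of all genes. PAX5 was the 1 gene of the 8 apart between PRP lysate and ACS, lower with PRP lysate, beside 8.92% of all genes lower and 6.06% higher. The median difference over the 8 genes was 0.20 for IL-1ß against Untreated, beside -0.07 for all genes tested, and 0.15 for MSC-CM against IL-1ß, beside 0.16. It was -0.52 for PRP lysate against IL-1ß, beside 0.11 for all genes, and -0.27 for ACS, beside 0.14. Against MSC-CM it was -0.75 with PRP lysate, beside -0.09, and -0.52 with ACS, beside -0.03, and between PRP lysate and ACS it was -0.30, beside -0.05.

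CD22, a co-receptor that restrains B cell receptor signaling, was at 22.8, 25.1 and 24.6 CPM in the Untreated libraries, at 34.02, 43.5 and 39.0 CPM with IL-1ß and at 45.3, 55.0 and 45.4 CPM with MSC-CM. With PRP lysate CD22 was at 40.3, 22.7 and 27.0 CPM, and with ACS at 28.4, 31.5 and 33.1 CPM. Its 5 groups ran from Untreated below ACS below IL-1ß below MSC-CM with no overlap between these 4, and only PRP lysate overlapped others. The share of all genes with such an order was not counted. Between ACS and MSC-CM alone, 19.8% of all genes were apart and lower with ACS. CD22 differed by 0.67 between IL-1ß and Untreated (SE 0.192, 95% interval 0.25 to 1.08, adjusted p = 0.188, limma) and by -0.72 between PRP lysate and MSC-CM (95% interval -1.14 to -0.31, adjusted p = 0.0611, limma).

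In IL-1ß 3 and PRP lysate 1, the difference from the rest of the group varied with gene span. Over all genes tested, the median difference of IL-1ß 3 from the other 2 IL-1ß libraries ran from 0.19 in the 25% of genes with the shortest spans to -0.91 in the 25% with the longest, and that of PRP lysate 1 from 0.25 to -0.53. BANK1 and PAX5, the genes with the longest spans of the 8, were lower in both libraries, with differences of -1.15 and -1.17 for BANK1 and -2.41 and -1.60 for PAX5. CD79A, with a span of 3.53 kb, was higher by 1.14 and 1.63. TNFRSF13C and BLK differed in opposite directions in the 2 libraries, with -1.07 in IL-1ß 3 and 1.03 in PRP lysate 1 for TNFRSF13C, and -1.37 and 1.52 for BLK. With the trend over span removed from every library, TNFRSF13C passed the threshold for ACS against IL-1ß (1.37, adjusted p = 0.0458, limma) beside 2.41% of all genes. None of the 8 genes passed in the other 6 comparisons of that fit, beside 0.244% of all genes for IL-1ß against Untreated, 0% for MSC-CM and 3.56% for PRP lysate against IL-1ß, 2.62% for PRP lysate and 1.33% for ACS against MSC-CM, and 0.129% for PRP lysate against ACS.

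**Figure D4:**
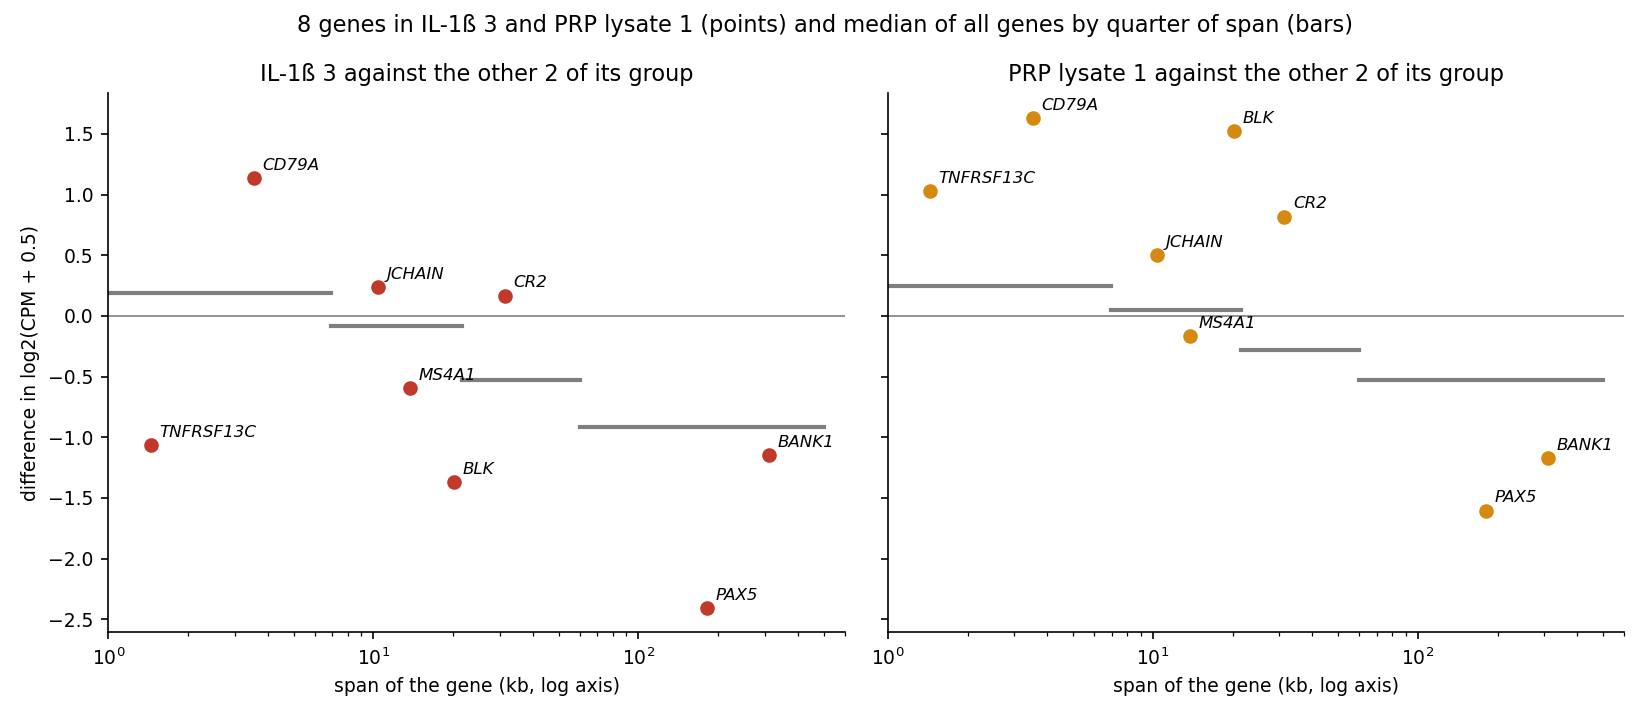
Difference in log2(CPM + 0.5) of IL-1ß 3 (left) and PRP lysate 1 (right) from the other 2 libraries of their group against gene span (kb, log axis), for the 8 genes (points) and as the median of all genes in each of 4 equal groups by span (bars). PAX5 lies lowest in both, at -2.41 and -1.60, and BANK1 at -1.15 and -1.17, while CD79A lies highest at 1.14 and 1.63.

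The 8 genes varied together only in part. Across the 15 libraries, 19 of 28 pairs had a Pearson's r above 0 on the log scale, with a median of 0.22 and a range from -0.64 (CD79A with BANK1) to 0.80 (BANK1 with PAX5). These are descriptions over 15 libraries that share groups and 2 libraries that stand apart. Over the 13 libraries without IL-1ß 3 and PRP lysate 1, MS4A1, CD79A and BLK had the highest values, with r of 0.79 to 0.83 between them, and BANK1 with PAX5 had an r of 0.08. TNFRSF13C had an r below 0 with each of these 3, from -0.26 to -0.14. The genes whose pattern over the 15 libraries was most like that of a member were TMEM184C for BANK1 (r = 0.98), ADAP1 for CD79A (0.95), SLC39A11 for PAX5 (0.93), ZNF789 for MS4A1 (0.91), S1PR2 for TNFRSF13C (0.89), KRT25 for BLK (0.87), RGS9BP for JCHAIN (0.86) and PDZK1IP1 for CR2 (0.83).

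**Figure D5:**
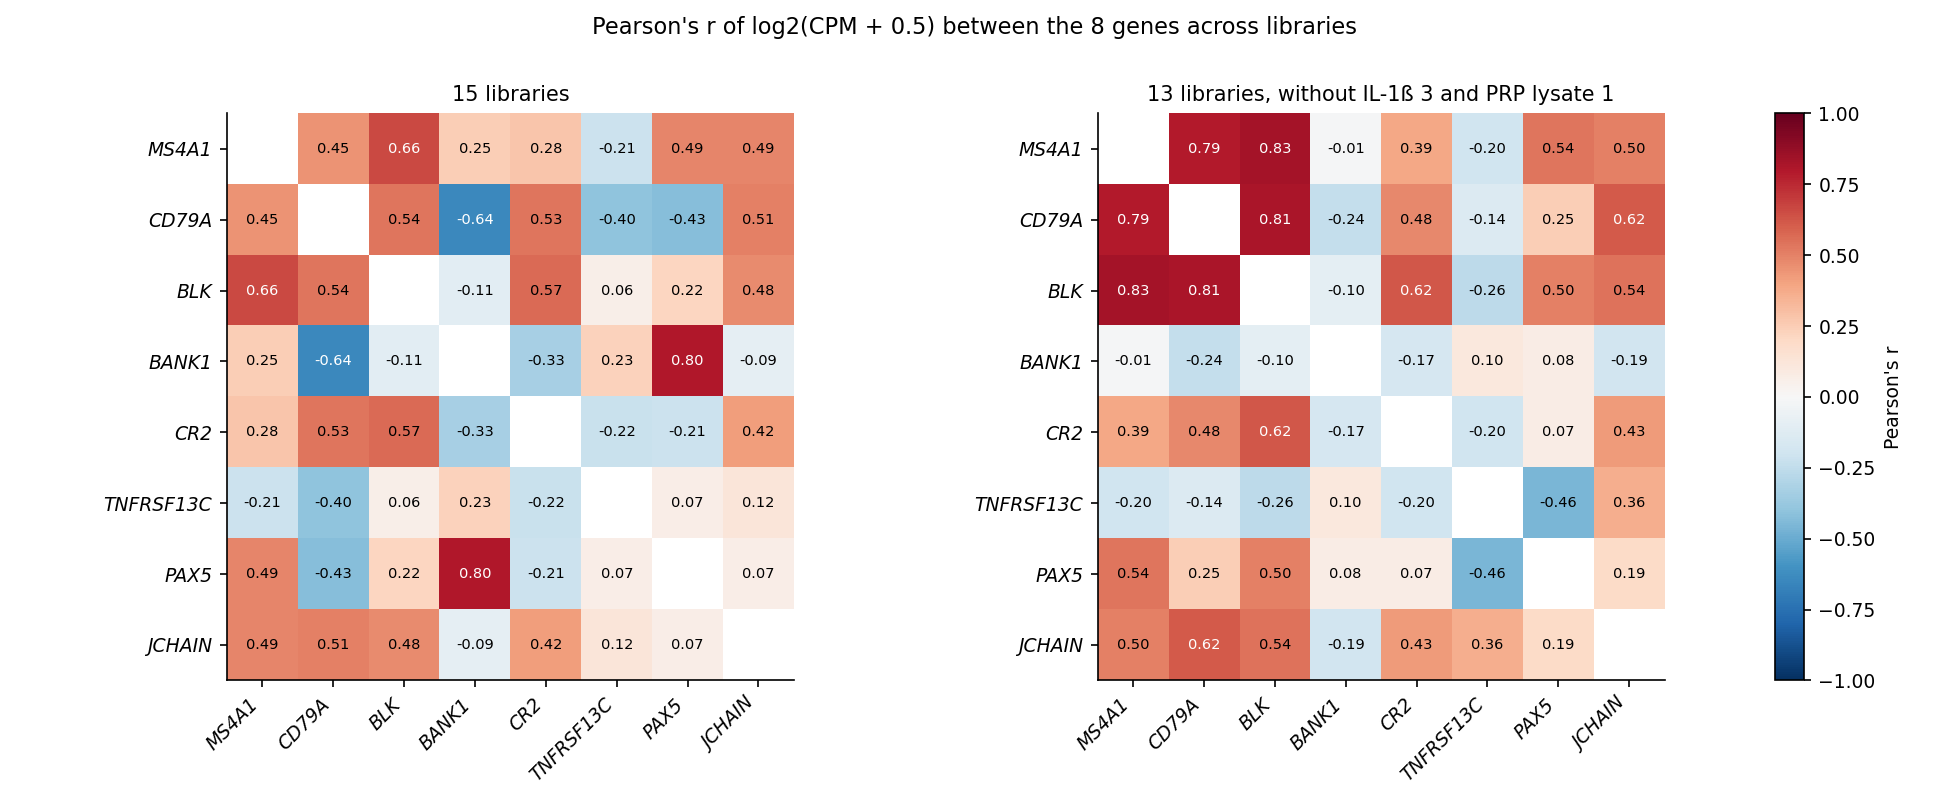
Pearson's r of log2(CPM + 0.5) between each pair of the 8 genes, over 15 libraries (left) and over the 13 without IL-1ß 3 and PRP lysate 1 (right), coloured from blue at -1 to red at 1. MS4A1, CD79A and BLK reach 0.79 to 0.83 with each other on the right, and BANK1 with PAX5 goes from 0.80 to 0.08.

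Among the genes around these 8 in the B cell pathway, none was called in IL-1ß against Untreated or MSC-CM against IL-1ß in any list, beside 0.208% and 0% of all genes. Of 14 other B lineage surface proteins tested, 1 rose and 2 fell with PRP lysate against IL-1ß, beside 2.89% of all genes called, and 1 rose and 1 fell with ACS, beside 2.06%. CD40, the receptor for T cell help that macrophages also carry, was at 168 ± 19.4 CPM with PRP lysate and 198 ± 24.5 with ACS against 68.6 ± 10.2 with IL-1ß (SD, n = 3), and rose by 1.29 (adjusted p = 0.00115, limma) and 1.53 (adjusted p = 0.00121, limma). CD72, an inhibitory co-receptor, fell from 13.1 ± 3.26 CPM to 2.80 ± 1.27 with PRP lysate and 3.78 ± 0.311 with ACS, log2 differences of -2.09 (adjusted p = 0.000742, limma) and -1.64 (adjusted p = 0.00795, limma). FCRL4 also fell with PRP lysate (-1.06, adjusted p = 0.0467, limma), but not without IL-1ß 3 and PRP lysate 1 (-0.93, adjusted p = 0.0996, limma). CD40 and CD72 also passed in the same directions for PRP lysate and for ACS against MSC-CM.

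The counts that follow stand beside the same shares of all genes called, 2.89% for PRP lysate and 2.06% for ACS against IL-1ß, and 2.4% and 1.07% against MSC-CM. For IL-1ß against Untreated, MSC-CM against IL-1ß and PRP lysate against ACS the shares were 0.208%, 0% and 0.0932%. Of 28 B cell receptor signaling genes, most of them shared with myeloid cells, LYN, a SRC family kinase, was the 1 that passed, and it fell with PRP lysate from 207 ± 82.9 CPM with IL-1ß to 60.3 ± 21.3 CPM (SD, n = 3; -1.75, adjusted p = 0.0119, limma). Of 19 transcription factors, IRF8, which works in both lineages, rose with PRP lysate by 1.23 (adjusted p = 0.00292, limma) and with ACS by 1.37 (adjusted p = 0.00357, limma), and ID3 fell with ACS (-1.28, adjusted p = 0.0395, limma). EBF1, which acts with PAX5 early in the lineage, was at 0 to 1.00 CPM. Of 11 ligands that act on B cells, IL6 fell with PRP lysate (-2.66, adjusted p = 0.0128, limma) and with ACS (-2.17, adjusted p = 0.0495, limma), from 49.0 ± 9.91 CPM with IL-1ß. Against MSC-CM, PRP lysate had less CXCL13, the chemokine for B cells (-2.13, adjusted p = 0.0483, limma), and more IL4 (1.01, adjusted p = 0.0349, limma). None of 14 genes of plasma cell differentiation passed in any comparison, and none of the 8 T cell and 6 NK cell markers did. Of 3 early B lineage genes tested, SOX4 rose with ACS (1.93, adjusted p = 0.0166, limma). It went from 0.634 ± 0.601 CPM with IL-1ß, where IL-1ß 3 was at 0, to 3.40 ± 0.812 CPM (SD, n = 3). Among markers of other cells, 3 of 9 macrophage genes fell with PRP lysate against IL-1ß, the scavenger receptor CD163 (-5.57, adjusted p = 6.66e-06, limma), the complement gene C1QC (-2.11, adjusted p = 0.000815, limma) and MARCO (-1.70, adjusted p = 0.0332, limma). With ACS, 1 of the 9 fell, CD163 (-3.13, adjusted p = 0.00149, limma). Of 4 conventional dendritic cell genes tested, FLT3 fell with PRP lysate (-1.83, adjusted p = 0.000997, limma) and 0 were called with ACS. Of 2 plasmacytoid dendritic cell genes, IRF7 fell with PRP lysate (-1.67, adjusted p = 0.000353, limma) and with ACS (-1.29, adjusted p = 0.00485, limma), while TCF4 differed by 1.31 (adjusted p = 0.439, limma) and 1.88 (adjusted p = 0.223, limma). Of 4 stromal genes, the collagen gene COL1A1 rose with ACS by 1.52 (adjusted p = 0.0249, limma), and 0 were called with PRP lysate. COL1A1 was close to 0 with IL-1ß, at 0.00942 ± 0.0163 CPM, against 1.07 ± 0.644 CPM with ACS (SD, n = 3). Of 35 calls made in these lists over all comparisons, counting up to 3 genes a list, 30 also passed without IL-1ß 3 and PRP lysate 1. Of the 5 that did not, 3 kept an adjusted p below the threshold but were short of 2-fold, ID3 with ACS against IL-1ß (-0.96, adjusted p = 0.0249, limma) and IL4 (0.94, adjusted p = 0.0284, limma) and IRF7 (-0.99, adjusted p = 0.00110, limma) with PRP lysate against MSC-CM. The others were FCRL4, given above, and MARCO (-1.64, adjusted p = 0.0507, limma) with PRP lysate against IL-1ß.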

How the data were processed

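Polyadenylated RNA of 15 libraries was sequenced. The authors trimmed reads at a Phred score of 20, aligned them to EquCab3.0 by STAR 2.7.3 and, after gene counting by HTSeq in Partek Flow, deposited CPM for protein-coding genes. The strand setting is not given in the sources used here. All 15 columns matched a sample by name. Whole reads could be recovered from 99.5% of values (within 0.05 reads).

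limma 3.58.1 (trend) was fitted in R 4.3.3 to log2(CPM + 0.5) of the 13955 genes that averaged 0.1 CPM or more, with 1 mean for each of 5 groups, for 7 comparisons. Adjusted p-values are Benjamini-Hochberg over all genes tested; called means at most 0.05 and at least 2-fold. Alternatives were edgeR 4.0.16 and DESeq2 1.42.0 on recovered reads, other pseudocounts, filters and scalings, fewer groups, a replicate block, and libraries left out. The scripts were tested on simulated data. From the pathway lists, up to 3 called genes with the largest differences were named for each comparison, and for each member the gene most correlated with it. The members and lists were chosen with earlier results of these data known. A gene of the marker lists is not reported here. No sequence is shown, since no sequence table was used here. No 2 libraries of a group agreed within sampling noise. By the methods the therapies came from the same 3 horses. Deviations of MSC-CM and PRP lysate libraries with the same number had correlations of 0.53, 0.19 and 0.30. Untreated libraries, which had no therapy donor, had 0.24, 0.47 and -0.33 with the PRP lysate libraries of the same number. The labels of MSC-CM and PRP lysate libraries name no horse, so whether their numbers pair them is not known.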

Additional observations from a re-analysis of the deposited data

How the results depend on the processing

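Another filter, pseudocount or scaling, no fold threshold, fits to fewer groups and the replicate block called 0 of the 8 genes in each comparison where it was run, as did edgeR. DESeq2 called 1 for IL-1ß against Untreated (TNFRSF13C), 1 for PRP lysate against IL-1ß and 1 for PRP lysate against MSC-CM (MS4A1 both times), and 2 for ACS against IL-1ß (CD79A, TNFRSF13C). With IL-1ß 3 and PRP lysate 1 both left out, chosen after seeing the data, limma called 1 for IL-1ß against Untreated and for ACS against IL-1ß (BLK) and 2 for PRP lysate against IL-1ß and against MSC-CM (BLK, CD79A). With the gene span trend removed, also chosen after seeing the data, it called 1 for ACS against IL-1ß (TNFRSF13C, beside 2.41% of all genes). Leaving out 1 library at a time gave 0 to 2 calls for PRP lysate against IL-1ß (BLK and CD79A without PRP lysate 1, beside 3.83% of all genes), 0 to 1 for ACS against IL-1ß (TNFRSF13C without IL-1ß 1, beside 5.15%) and 0 in the other comparisons; an arm left with 2 libraries takes its spread from all groups. The cause was not tested. MSC-CM against IL-1ß, ACS against MSC-CM and PRP lysate against ACS gave 0 calls under all alternatives run.

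Of 56 log2 differences, 39 kept their sign under all alternatives and 17 did not, none of them larger than 0.53 in size and none called. Leaving out both libraries turned PAX5 to 0.79 for IL-1ß against Untreated. For MSC-CM against IL-1ß it turned MS4A1 to -0.12, BANK1 to -0.23 and PAX5 to -0.30, and for ACS against IL-1ß BANK1 to -0.060, PAX5 to -0.45 and JCHAIN to 0.033. For PRP lysate it turned BANK1 to 0.10 and TNFRSF13C to -0.32 against MSC-CM, and CD79A to -0.47 against ACS. Removing the span trend turned PAX5 to 0.19 for IL-1ß against Untreated. For MSC-CM against IL-1ß it turned MS4A1 to -0.069, BANK1 to -0.14 and CR2 to -0.084, for ACS against IL-1ß BANK1 to -0.034 and PAX5 to -0.021, and for PRP lysate against ACS CR2 to 0.11. DESeq2 and edgeR turned PAX5 to 0.34 and 0.34 for IL-1ß against Untreated and to -0.11 and -0.12 for ACS against IL-1ß. For MSC-CM against IL-1ß they turned MS4A1 to -0.053 and -0.0083 and BANK1 to -0.061 and -0.020, and for PRP lysate against ACS CR2 to 0.25 and 0.24, with BLK at 0.0073 in DESeq2. RLE and TMM scaling turned MS4A1 to -0.0717 and -0.031 for MSC-CM against IL-1ß, RLE turned BANK1 to -0.014 there, and both turned CR2 to 0.016 and 0.014 for PRP lysate against ACS. A pseudocount of 1 turned PAX5 to 0.058 for IL-1ß against Untreated and CR2 to 0.00503 for PRP lysate against ACS, and a pseudocount of 0.1 turned BLK to 0.035 for MSC-CM against IL-1ß.

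Leaving out 1 library moved these differences across 0. For IL-1ß against Untreated, PAX5 ran from -0.66 to 0.79 and JCHAIN from -0.17 to 0.011. For MSC-CM against IL-1ß, MS4A1 ran from -0.15 to 0.23, BLK from -0.47 to 0.22, BANK1 from -0.23 to 0.39, CR2 from -0.15 to 0.38 and PAX5 from -0.30 to 1.15. For PRP lysate against IL-1ß, BANK1 ran from -0.52 to 0.26 and PAX5 from -1.34 to 0.11, and for ACS against IL-1ß, BANK1 from -0.060 to 0.56, PAX5 from -0.45 to 1.00 and JCHAIN from -0.32 to 0.16. For PRP lysate against MSC-CM, BANK1 ran from -0.50 to 0.10 and TNFRSF13C from -0.32 to 0.21, and against ACS CD79A from -0.47 to 0.51, BLK from -0.73 to 0.046 and CR2 from -0.28 to 0.15.

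Over the 4 numbered groups, deviations of libraries with the same number had correlations from -0.67 to 0.53. The numbers therefore did not pair the libraries of these groups as a whole. Those of MSC-CM with PRP lysate were all above 0, which does not establish that libraries with the same number share a donor. The replicate block over 4 groups called 0 of the 8 genes, and over all genes 5, 0, 203 and 165 for IL-1ß against Untreated, MSC-CM, PRP lysate against IL-1ß and PRP lysate against MSC-CM, against 6, 0, 302 and 243 in the same groups without it. A replicate block on MSC-CM and PRP lysate alone, chosen after seeing the data, called 0 of the 8 genes and 434 over all genes, against 174 in these 2 groups without it. It changed no call among the 8. Over all genes, limma with 5 groups called 29, 0, 403 and 335 for these, 288 for ACS against IL-1ß, 150 for ACS against MSC-CM and 13 for PRP lysate against ACS. DESeq2 called 181, 2, 700 and 491, then 586, 297 and 61. For ACS against MSC-CM, RLE scaling moved the split from 72 higher and 78 lower to 89 and 53. CR2 had 0 to 33 reads and BLK 6 to 77 in a library, and a filter at a mean of 1 CPM left no value for either.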
